A study of Mus musculus with 47 samples.

Results

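Loss of SUZ12 throughout neural differentiation was described from 5 of the 47 RNA-seq libraries of the series. The cultures with SUZ12 loss were 2 libraries of SUZ12-AID neural progenitor cell (NPC) cultures kept in auxin for 5 days, and they were set against 3 libraries of the same line differentiated for 5 days without auxin. The libraries were taken by their labels alone, so no measured value entered the choice. Every line of the series came from C57BL/6 mouse embryonic stem cells (ESCs) obtained from ATCC and carries Tir1, the plant auxin receptor that directs proteins with an auxin-inducible degron (AID) to the proteasome. In the SUZ12-AID line the degron is on SUZ12, so auxin (50 µM indole-3-acetic acid, IAA) removes the protein and leaves its gene in place. Stem cells were moved from medium with LIF, CHIR99021 and PD0325901 into N2B27 with bFGF, then into N2B27 with SAG, an agonist of the Hedgehog transducer Smoothened. The other groups used for comparison were JARID2-AID, MTF2-AID and untagged Tir1 NPC cultures with 5 days of auxin and without it (3 libraries each), SUZ12-AID ESCs with 12 hours of auxin and without it (3 libraries each), and untagged Tir1 ESCs without auxin (3 libraries). The labels do not say whether each line is a single clone. The titles of the JARID2-AID and MTF2-AID NPC libraries give day 0, whereas their other labels give NPC and 5 days, which were followed here.

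SUZ12 is a core subunit of Polycomb repressive complex 2 (PRC2), which places methyl groups on lysine 27 of histone H3 and holds developmental genes silent in cells that should not use them. EZH2 or EZH1 carries the catalytic site, EED and SUZ12 are needed for activity, and accessory subunits such as MTF2 and JARID2 help to bring the complex to CpG-rich promoters. In vertebrate neural progenitors PRC2 is best known for keeping the Hox genes, regulators of other germ layers and factors of other positions along the body axis off, and stem cells without it are known to differentiate poorly.

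The 2 auxin libraries held 5625131 and 6295398 reads and the 3 untreated libraries 6585733 to 7702435, within the range of 3237115 to 8707922 over all 47 libraries. Values are TPM (transcripts per 1000000), a level scaled for gene length and library size. The auxin libraries listed 14728 and 14720 genes at 1 TPM or more, against 14066 to 14089 genes in the untreated libraries. Pearson's r between log2 values across genes was 0.980 for the auxin pair and 0.983 to 0.984 for the untreated pairs, against 0.894 to 0.902 for pairs across the treatment. Suz12 RNA itself was 167 and 160 TPM in auxin cultures, against 76.5, 79.5 and 77.5 TPM in untreated cultures. The degron acts on the protein, so this transcript does not check that SUZ12 was depleted. No protein measurement was analysed here. The design text calls the replicates biological. The p-values rest on a spread pooled within groups over all 23 NPC libraries (47 for contrasts with ESCs), not on these 5 libraries alone.

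The neural label of the cultures was checked against cell type markers. All 7 neural progenitor markers (Sox1, Sox2, Pax6, Nes, Fabp7, Vim and Hes5) stayed above 1 TPM in both groups, and their summed level was 1736 to 1755 TPM in auxin cultures, against 4106 to 4129 TPM in untreated cultures. The 5 neuron markers summed to 251 to 285 TPM with auxin, against 2535 to 2640 TPM without it. The 4 markers of pluripotent cells (Pou5f1, Nanog, Zfp42 and Esrrb) summed to 522 to 533 TPM with auxin, against 10.2 to 14.3 TPM without it. Auxin cultures carried less RNA of progenitor and neuron markers and more of pluripotent markers than untreated cultures did. These are bulk samples, in which fewer cells of a type and less RNA per cell cannot be told apart.

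Across 16469 genes with at least 1 TPM in 2 or more of the 23 NPC libraries, 3931 (23.9%) were higher and 5437 (33.0%) were lower in auxin than in untreated SUZ12-AID cultures, 9368 (56.9%) in all (limma on log2(TPM + 0.5), Benjamini-Hochberg adjusted p under 0.05). Differences of at least 2-fold were found for 2025 higher genes (12.3%) and 1674 lower genes (10.2%), and of at least 4-fold for 876 higher and 450 lower genes. The 2 auxin and 3 untreated libraries did not overlap for 73.4% of the genes tested. With median-of-ratios scaling, which moved the median difference of all genes by 0.123 on the log2 scale, 9332 genes (56.7%) were called and 53.9% of the calls were higher, against 42.0% on the TPM scale. All 3931 higher genes and 4299 of the lower genes were called in the same direction under both scalings. Fold changes below are on the log2(TPM + 0.5) scale, given with their standard error (SE), and they understate the change of low genes. Of the genes tested, 486 passed the filter on low values only because of the auxin libraries. Members of this kind had to be high with auxin, so counts over gene lists below leave them out, and the matching background is 22.1% of genes higher and 34.0% lower.

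**Figure D1:**
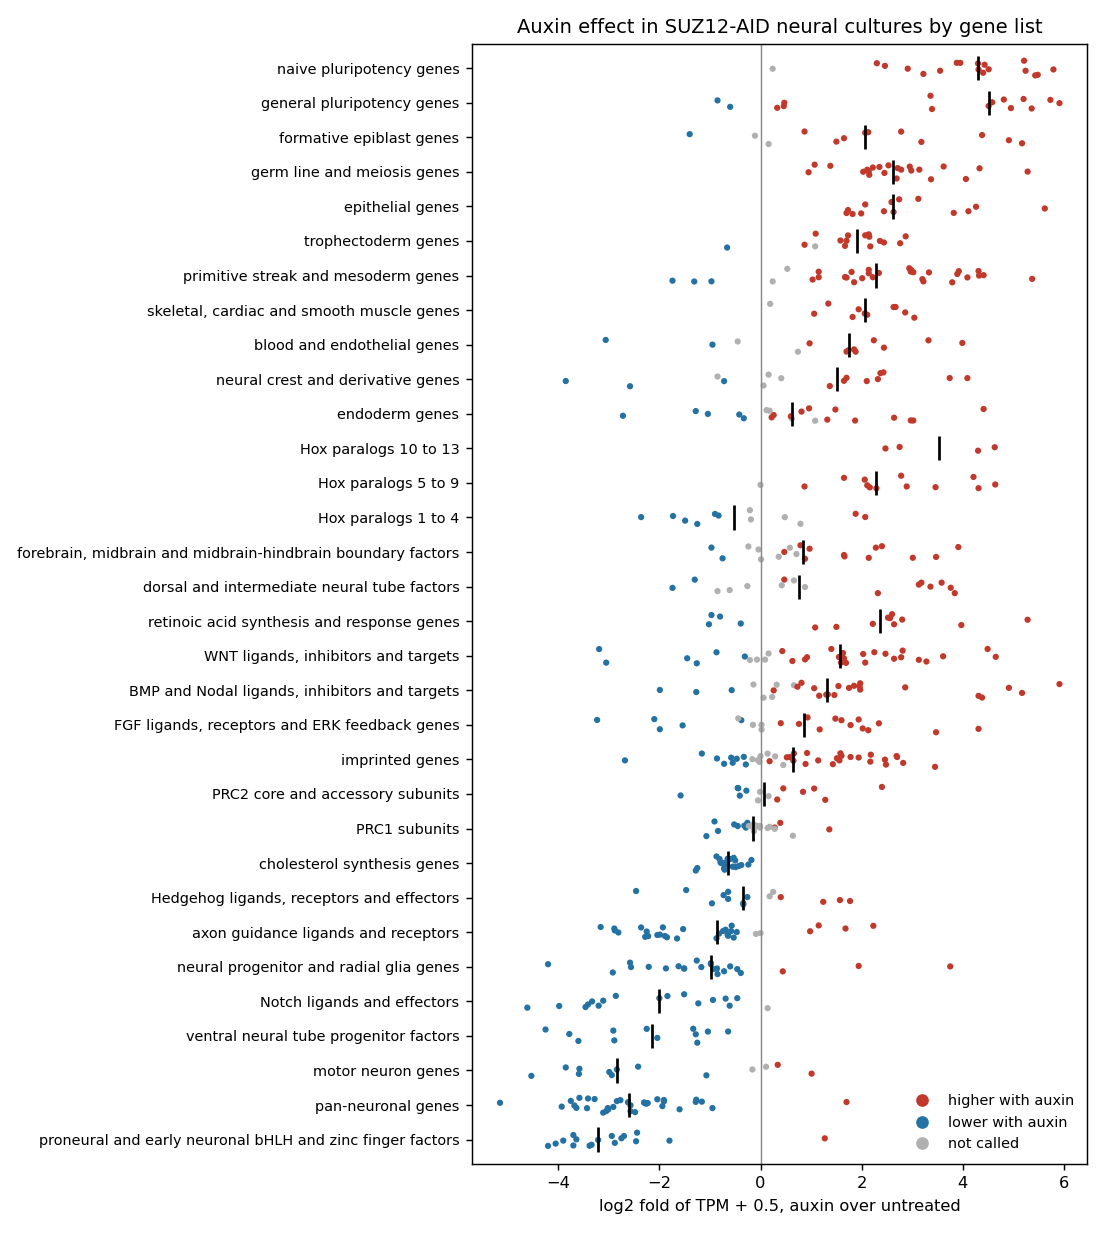
Each point is a gene of one of 32 gene lists, placed by its log2 fold change between auxin and untreated SUZ12-AID NPC cultures on the log2(TPM + 0.5) scale, and the black bar is the median of all tested members, those that passed only through the auxin libraries included. Lists of stem cell, germ line, epithelial and mesodermal genes lie mostly above 0, and lists of Notch, proneural and pan-neuronal genes mostly below it.

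Genes of the naive pluripotent state, which stem cells normally silence as they leave self-renewal, were far higher in cultures that differentiated without SUZ12. Of the 17 naive genes that passed the filter without the auxin libraries, 16 rose and none fell, with a median log2 fold change of 4.30, against -0.10 over all genes tested. Nanog, a homeodomain factor of the pluripotency network, had 116 and 115 TPM in auxin cultures, against 1.10, 2.78 and 1.25 TPM in untreated cultures. Klf2, a Krüppel-like factor that sustains naive self-renewal, had 178 and 166 TPM with auxin, against 2.42, 3.86 and 4.06 TPM without it. In both genes the lowest auxin library lay far above the highest untreated one, with log2 fold changes of 5.79 ± 0.23 (adjusted p = 7.89e-15) and 5.48 ± 0.17 (adjusted p = 8.42e-17). Dppa3, a maternal factor that protects DNA methylation patterns, had 84.0 and 87.7 TPM with auxin, against 0.827, 2.86 and 1.29 TPM without it. Esrrb, an orphan nuclear receptor of naive cells, had 56.0 and 50.3 TPM with auxin, against 1.85, 2.27 and 1.85 TPM without it. Dppa5a, which has close copies that reads may not separate, had 515 and 559 TPM with auxin and 11.1 to 15.3 TPM without it.

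General pluripotency genes followed, with 13 of 15 higher and 2 lower and a median log2 fold change of 4.51. Pou5f1, which encodes OCT4, the POU factor at the centre of the network, had 344 and 339 TPM in auxin cultures, against 8.21, 8.63 and 6.81 TPM in untreated cultures. Its log2 fold change was 5.36 ± 0.12 (adjusted p = 3.69e-19). Tdgf1, a co-receptor for Nodal, had 59.3 and 58.2 TPM with auxin, against 0.324, 0.187 and 1.18 TPM without it, and its log2 fold change of 5.91 ± 0.31 (adjusted p = 5.9e-13) was the highest of the genes named here. Utf1, a chromatin factor of embryonic cells, had 267 and 261 TPM with auxin, against 8.75, 6.37 and 9.38 TPM without it. The 2 genes that fell are also used by neural cells. Sox2, shared by stem cells and neural progenitors, had 197 and 203 TPM with auxin, against 362, 365 and 352 TPM without it, and Lin28b, a let-7 inhibitor, had 19.9 and 20.6 TPM with auxin, against 30.3, 31.8 and 30.7 TPM without it.

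The stem cell genes stood between their NPC and ESC levels. Set against the mean of untreated SUZ12-AID ESCs, the 18 naive genes were at 5.80% (Klf4) to 42.3% (Sox15) in auxin NPC cultures with a median of 15.7%, and at 0.146% to 11.9% with a median of 0.534% in untreated NPC cultures. Nanog stood at 16.1% of its ESC level in auxin cultures. Dnmt3l, a cofactor of the de novo DNA methyltransferases, departed from that order. It had 127 and 128 TPM with auxin, against 1.52, 2.62 and 1.71 TPM without it, while untreated SUZ12-AID ESCs averaged 10.6 TPM. Genes of the formative epiblast, the state between naive cells and lineage choice, were 10 higher and 1 lower of 13 (median log2 fold change 2.07). With JARID2 loss, 11 of the same 13 rose and 1 fell (median 1.25). Nodal, a TGF-beta family ligand of the epiblast, had 19.9 and 21.3 TPM with auxin, against 0.323, 0 and 0.335 TPM without it. Dnmt3b, a de novo DNA methyltransferase, had 34.8 and 37.1 TPM with auxin, against 11.7, 13.7 and 11.6 TPM without it. Fgf5, the usual marker of that state, reached only 2.83 and 2.05 TPM with auxin, against 0.405, 0.155 and 0 TPM without it.

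**Figure D2:**
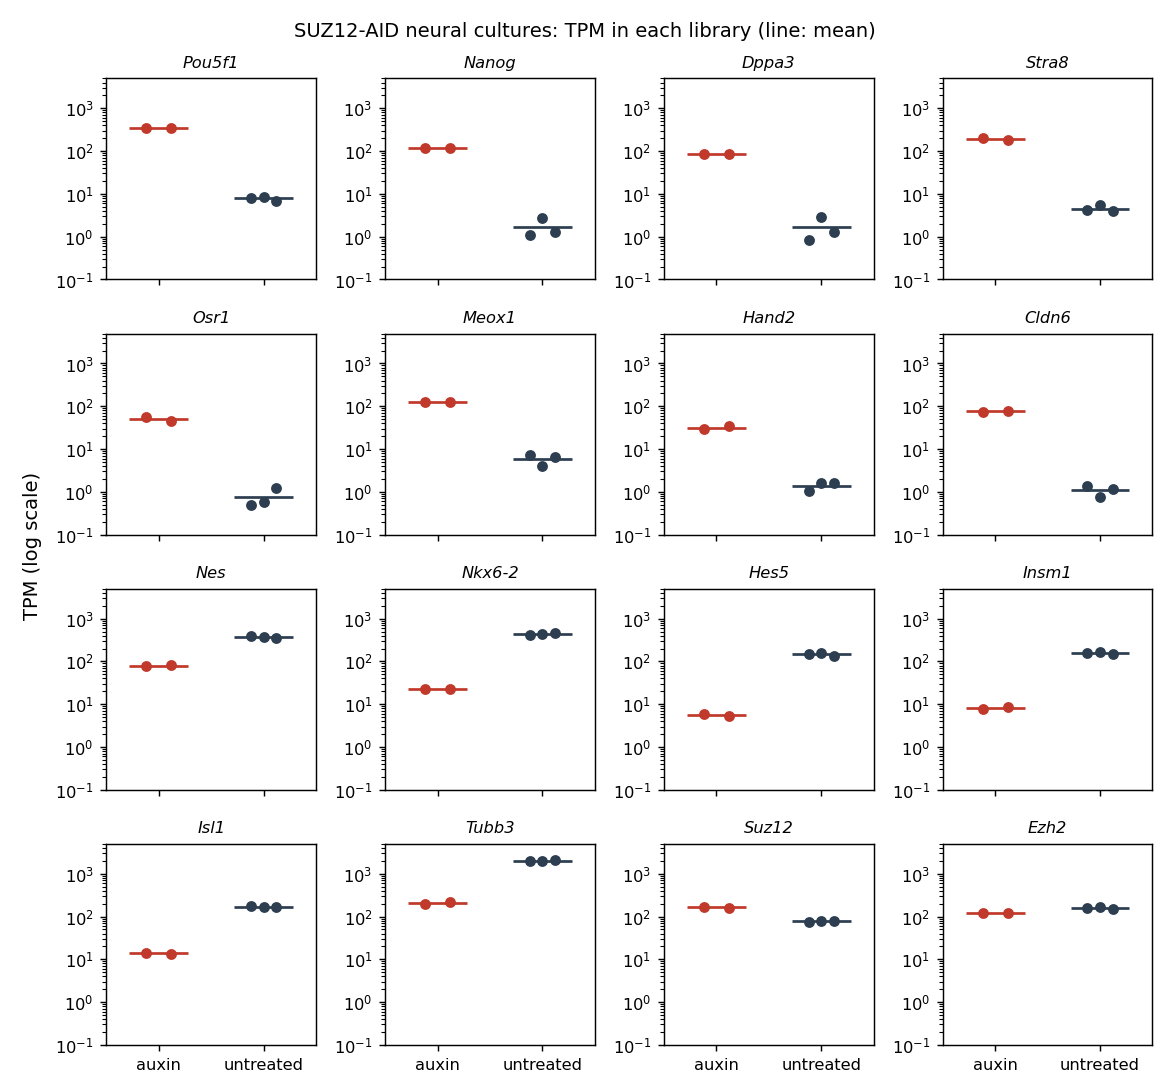
TPM on a log axis of 16 genes in the 2 auxin and 3 untreated SUZ12-AID NPC libraries, with 1 point per library and a line at the group mean. Pou5f1 stands at 339 to 344 TPM with auxin, against 6.81 to 8.63 TPM without it, and Hes5 at 5.31 to 5.84 TPM with auxin, against 135 to 157 TPM without it.

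Promoters are shown for the genes with the largest rises that have an entry in the RefSeq promoter table, together with Hoxd9 and Hes5, which were chosen after their values were seen, because PRC2 is known for acting at CpG-rich promoters. Each window runs from 250 bases before to 50 bases after an annotated start in GRCm38.p6 and is written 5′ to 3′ on the gene's strand, with every CG in capitals, a pair that reads the same on both strands. Tdgf1 (chr9:110946109-110946408, minus strand) holds 7 CG, Nanog (chr6:122707239-122707538, plus strand, 1 of 2 starts) 4, Dnmt3l (chr10:78042037-78042336, plus strand, 1 of 3 starts in the table) 6 and Rpl10l (chr12:66284352-66284651, minus strand) 13. Hoxd9 (chr2:74697513-74697812, plus strand) holds 20 CG and Hes5 (chr4:154960673-154960972, plus strand) 41. Each window covers the upstream flank and the first transcribed bases of the start used.
Tdgf1: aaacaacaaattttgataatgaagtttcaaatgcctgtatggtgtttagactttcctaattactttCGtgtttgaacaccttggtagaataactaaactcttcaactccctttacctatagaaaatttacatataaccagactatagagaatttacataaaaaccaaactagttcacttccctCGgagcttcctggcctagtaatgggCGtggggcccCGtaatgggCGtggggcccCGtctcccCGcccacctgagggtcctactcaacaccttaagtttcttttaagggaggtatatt
Nanog: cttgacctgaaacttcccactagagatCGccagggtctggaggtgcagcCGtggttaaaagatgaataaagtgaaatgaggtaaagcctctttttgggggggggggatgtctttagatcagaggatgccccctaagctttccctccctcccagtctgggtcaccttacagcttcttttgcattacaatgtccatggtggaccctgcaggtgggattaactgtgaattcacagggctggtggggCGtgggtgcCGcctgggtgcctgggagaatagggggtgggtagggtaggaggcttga
Dnmt3l: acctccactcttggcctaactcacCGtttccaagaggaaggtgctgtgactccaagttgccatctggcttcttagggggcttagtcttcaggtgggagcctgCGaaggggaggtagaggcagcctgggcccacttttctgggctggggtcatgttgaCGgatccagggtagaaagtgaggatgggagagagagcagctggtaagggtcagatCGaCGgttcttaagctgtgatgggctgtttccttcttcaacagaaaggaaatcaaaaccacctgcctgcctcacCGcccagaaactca
Rpl10l: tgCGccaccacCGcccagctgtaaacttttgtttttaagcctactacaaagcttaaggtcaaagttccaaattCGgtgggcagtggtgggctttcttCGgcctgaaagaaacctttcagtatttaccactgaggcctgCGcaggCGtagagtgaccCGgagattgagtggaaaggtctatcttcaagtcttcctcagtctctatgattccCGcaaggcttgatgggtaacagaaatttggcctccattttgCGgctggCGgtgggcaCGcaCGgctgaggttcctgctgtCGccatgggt
Hoxd9: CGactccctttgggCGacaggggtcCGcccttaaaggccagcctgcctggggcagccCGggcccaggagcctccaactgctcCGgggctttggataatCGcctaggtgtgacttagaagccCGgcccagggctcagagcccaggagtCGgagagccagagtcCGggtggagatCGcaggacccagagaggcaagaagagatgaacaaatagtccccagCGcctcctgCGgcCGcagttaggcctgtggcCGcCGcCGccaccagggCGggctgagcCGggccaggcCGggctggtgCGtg
Hes5: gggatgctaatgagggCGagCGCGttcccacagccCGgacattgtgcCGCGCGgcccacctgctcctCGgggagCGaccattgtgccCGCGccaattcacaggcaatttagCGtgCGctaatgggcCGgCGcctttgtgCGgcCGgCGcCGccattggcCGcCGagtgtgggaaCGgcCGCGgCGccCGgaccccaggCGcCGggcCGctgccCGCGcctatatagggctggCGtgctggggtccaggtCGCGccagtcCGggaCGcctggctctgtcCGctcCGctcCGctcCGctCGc

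The 4 promoters of strongly raised genes thus held fewer CG than the promoter of Hes5, the lowered Notch effector. A promoter was counted as CpG-rich where the CpG observed over expected ratio was over 0.6 and the GC share over 0.5. By that count Hes5 and Rpl10l were CpG-rich and Tdgf1, Nanog, Dnmt3l and Hoxd9 were not. Among genes that passed without the auxin libraries, 503 of 1150 promoters (43.7%) of genes at least 2-fold higher were CpG-rich, against 684 of 1152 (59.4%) of genes at least 2-fold lower and 7630 of 11413 (66.9%) of all with an entry. Among all 27025 promoters of the table the share was 33.9%. These shares are a description of the windows, with no measurement of PRC2 or its mark. Rpl10l, a testis retrogene of the ribosomal protein gene Rpl10, had 61.5 and 58.7 TPM with auxin, against 0.662, 0.380 and 1.03 TPM without it, and its reads may not be fully separable from those of its parent gene.

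Germ line genes were also higher. All 17 germ line and meiosis genes that passed without the auxin libraries rose, with a median log2 fold change of 2.69. Stra8, the retinoic acid-induced gatekeeper of meiosis, had 198 and 185 TPM in auxin cultures, against 4.13, 5.40 and 3.89 TPM in untreated cultures, a log2 fold change of 5.28 ± 0.22 (adjusted p = 1.18e-14). It exceeded the untreated ESC mean of 52.7 TPM. Dmrt1, a regulator of germ cell sex, had 37.7 and 36.6 TPM with auxin, against 1.56, 1.38 and 2.48 TPM without it. Ddx4, the germ cell RNA helicase, had 11.01 and 11.96 TPM with auxin, against 1.42, 1.32 and 1.01 TPM without it. Dazl, an RNA-binding protein of germ cells, had 17.1 and 16.3 TPM with auxin, against 0.299, 0.458 and 0.310 TPM without it.

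Epithelial genes moved the same way, and all 13 that passed without the auxin libraries rose, with a median log2 fold change of 2.63. Of the same 13, JARID2 loss raised 10 and MTF2 loss 11. For 4 of 14 tested epithelial genes, 1 of which passed only through the auxin libraries, untreated SUZ12-AID cultures already stood above untreated untagged cultures (limma, adjusted p under 0.05). Cldn6, a tight-junction claudin of embryonic epithelia, had 73.9 and 79.0 TPM with auxin, against 1.33, 0.767 and 1.15 TPM without it, a log2 fold change of 5.62 ± 0.27 (adjusted p = 1.47e-13). Cdh1, which encodes E-cadherin, had 72.8 and 68.4 TPM with auxin, against 8.17, 8.43 and 6.49 TPM without it. Cdh2, which encodes the N-cadherin of neural epithelium, moved the other way, with 31.07 and 29.96 TPM with auxin, against 96.6, 95.8 and 91.6 TPM without it. Of 16 trophectoderm genes, 14 rose and 1 fell. Tfap2c, an AP-2 factor of trophoblast and germ cells, had 67.0 and 69.8 TPM with auxin, against 10.1, 9.85 and 8.98 TPM without it. The keratins Krt8, Krt18, Krt19 and Krt7 rose too, with log2 fold changes of 1.70 to 2.44. For 9 of the 16 trophectoderm genes, untreated SUZ12-AID cultures already stood above untreated untagged cultures (limma, adjusted p under 0.05), and Krt19 averaged 83.0 TPM in untreated SUZ12-AID cultures and 37.1 TPM in untreated untagged cultures.

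Most regulators of mesoderm were higher with SUZ12 loss. Of 30 primitive streak and mesoderm genes that passed without the auxin libraries, 25 were higher and 3 lower, with a median log2 fold change of 2.18. Osr1, a zinc finger factor of kidney and heart mesoderm, had 55.1 and 46.2 TPM with auxin, against 0.505, 0.581 and 1.22 TPM without it (log2 fold change 5.37 ± 0.44, adjusted p = 9.98e-10). Meox1, a homeobox factor of somites, had 125 and 124 TPM with auxin, against 7.36, 4.05 and 6.36 TPM without it. Hand2, a basic helix-loop-helix factor of heart and limb, had 29.3 and 34.2 TPM with auxin, against 1.06, 1.57 and 1.57 TPM without it. Neither Osr1 nor Meox1 was a stem cell gene, with untreated ESC means of 0 and 0.0382 TPM. Twist1, a mesenchymal factor, had 95.1 and 101 TPM with auxin, against 29.5, 31.0 and 28.6 TPM without it. The 3 that fell were Eya1, Tbx2 and Pax8, all of which are also used in the nervous system or sense organs.

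Not every mesodermal marker appeared. Mesp1, the early cardiac mesoderm factor, was listed at 0 in both auxin libraries, while the 6 mesoderm markers summed to 248 to 249 TPM with auxin, against 39.8 to 43.6 TPM without it. Of 11 muscle genes 10 rose and none fell, led by Acta1, skeletal actin, with 29.17 and 30.04 TPM with auxin, against 2.37, 3.96 and 3.35 TPM without it. Smooth muscle Tagln had 268 and 251 TPM with auxin, against 46.7, 79.0 and 58.0 TPM without it. For 4 of the 11 muscle genes, untreated SUZ12-AID cultures already stood above untreated untagged cultures (limma, adjusted p under 0.05). Summed over the muscle list, JARID2 auxin cultures had 587 to 693 TPM and SUZ12 auxin cultures 571 to 614 TPM. Matrix genes of connective tissue were 12 higher and 3 lower of 18, among them Dcn, decorin, with 15.64 and 14.95 TPM with auxin, against 1.29, 1.48 and 2.67 TPM without it. Blood and endothelial genes were 8 higher and 2 lower of 12. Pecam1, a junction protein that mouse ESCs also make, had 32.1 and 33.5 TPM with auxin, against 1.48, 1.70 and 1.62 TPM without it, whereas Tal1, used by blood cells and by spinal interneurons, had 1.08 and 1.96 TPM with auxin, against 15.4, 16.7 and 15.7 TPM without it.

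Endoderm genes were split, with 11 higher and 5 lower of 20. Gata6, a zinc finger factor of primitive endoderm and heart, had 13.6 and 14.3 TPM with auxin, against 0.106 to 0.235 TPM without it. Its relative Gata4 had 14.2 and 12.6 TPM with auxin, against 0.662 to 1.83 TPM without it. Foxa2 and Foxa1 fell, and both also mark the floor plate of the neural tube. Sox17, a factor of definitive endoderm, stayed low at 0.849 and 1.08 TPM with auxin, against 0.0627, 0.0721 and 0.130 TPM without it. Neural crest genes were 6 higher and 3 lower of 13. Erbb3, a neuregulin receptor, had 16.1 and 15.8 TPM with auxin, against 0.589, 1.16 and 0.524 TPM without it, while Ednrb, the endothelin receptor of crest and radial glia, had 25.2 and 32.3 TPM with auxin, against 172, 174 and 174 TPM without it.

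Hox genes, the classical Polycomb targets that set position along the head-to-tail axis, are given by paralog number. Of the 9 genes of paralogs 5 to 9 that passed without the auxin libraries, 8 rose and none fell, with a median log2 fold change of 2.11. Hoxd9 had 11.3 and 9.58 TPM in auxin cultures, against 0, 0 and 0.167 TPM in untreated cultures, and its log2 fold change was 4.31 ± 0.35 (adjusted p = 1.09e-09). Hoxd8 had 10.99 and 9.823 TPM with auxin, against 0.313, 0.541 and 0.650 TPM without it. Hoxb8 had 14.4 and 15.4 TPM with auxin, against 3.44, 2.64 and 3.57 TPM without it. Another 4 of the 15 passed only through the auxin libraries, and all were listed at 0 in every untreated library. They were Hoxb9, with 13.6 and 10.6 TPM with auxin, Hoxc9 with 9.69 and 7.87 TPM, Hoxc8 with 3.69 and 2.32 TPM and Hoxb6 with 1.96 and 1.94 TPM. Hoxa6 was tested, not called and listed at 0 in all 5 libraries, and the other 2 of the 15, Hoxa9 and Hoxc6, did not pass the filter.

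The most posterior paralogs 10 to 13 were mostly silent in both groups, and 8 of the 12 did not pass the filter. Hoxb13 had 12.4 and 11.4 TPM with auxin and was listed at 0 in every untreated library, as were Hoxc13 (9.59 and 9.17 TPM with auxin), Hoxd13 (2.52 and 3.24 TPM) and Hoxa10 (2.12 and 2.45 TPM). The last 3 of these passed only through the auxin libraries. Summed over the 12 genes, the level was 29.01 to 31.44 TPM with auxin, and 5.53 to 6.79 TPM in untreated SUZ12-AID ESCs. With these 3 counted as well, 3 of the 4 tested were lower in untagged NPC cultures than in untagged ESCs. JARID2 loss raised 2 of the same 4. Of the 12 anterior paralogs 1 to 4, which hindbrain and cervical progenitors use, 2 were higher, 6 lower and 4 not called, with a median log2 fold change of -0.52. The background of lower genes was 34.0%. Hoxa2 had 8.68 and 7.83 TPM with auxin, against 47.3, 42.1 and 43.9 TPM without it (log2 fold change -2.36 ± 0.14, adjusted p = 3.64e-12). Hoxb2 had 49.9 and 46.8 TPM with auxin, against 117.3, 116.9 and 111.7 TPM without it. Hoxd1 rose, with 4.92 and 4.91 TPM with auxin, against 1.45, 0.627 and 0.942 TPM without it.

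**Figure D3:**
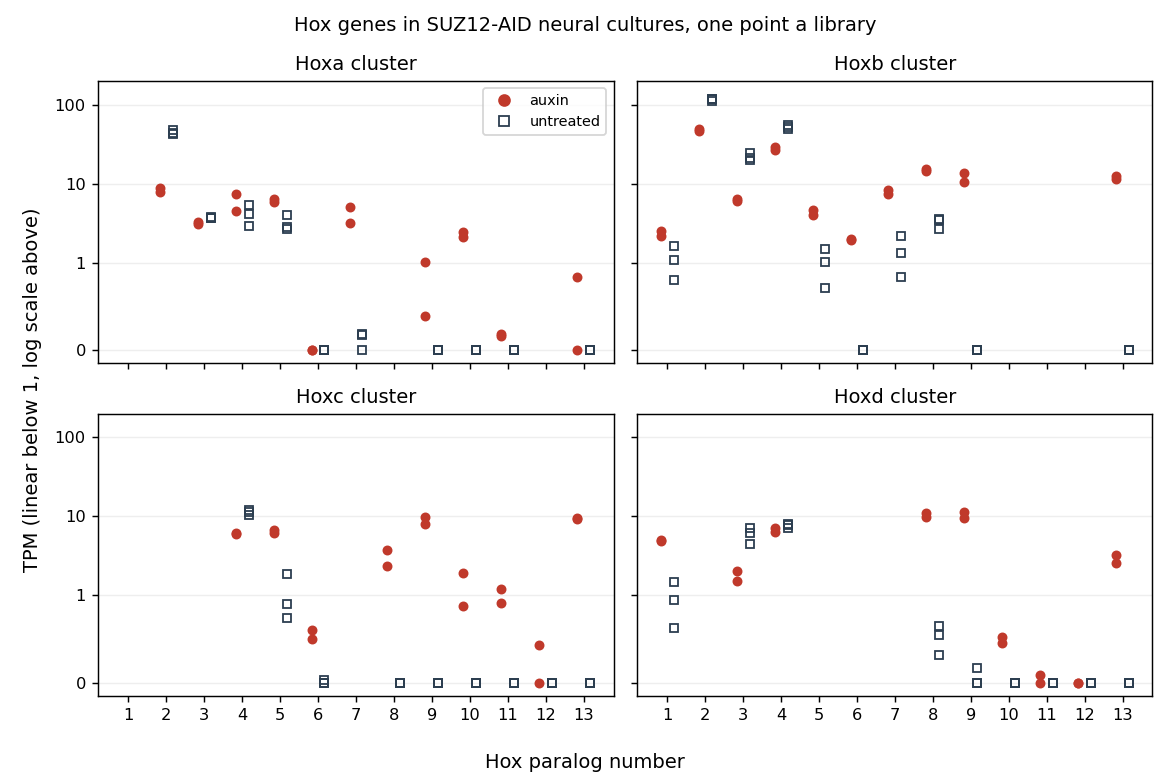
TPM of reported Hox genes of the 4 clusters by paralog number, with filled symbols for the 2 auxin libraries and open squares for the 3 untreated libraries of SUZ12-AID NPC cultures. Paralogs 2 to 4 of the HoxB cluster are highest without auxin, with Hoxb2 at 111.7 to 117.3 TPM, while Hoxb9 and Hoxd9 reach 9.58 to 13.6 TPM with auxin and stand at 0 to 0.167 TPM without it.

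Homeobox genes of other body regions rose more often than they fell, at 17 higher and 8 lower of 30. Pitx1, a factor of hindlimb and jaw, had 12.4 and 11.8 TPM with auxin, against 0.254, 0.146 and 0.395 TPM without it. Nkx1-1 was listed at 0 in both auxin libraries, against 6.91, 7.35 and 7.16 TPM in untreated cultures. Forebrain and midbrain factors were 11 higher and 2 lower of 19. Otx2, a factor of forebrain and epiblast, stayed low at 1.38 and 1.28 TPM with auxin, against 0.198, 0 and 0.0684 TPM without it.

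Along the dorsoventral axis of the neural tube the changes were opposite. All 12 tested ventral factors fell, with a median log2 fold change of -2.14. Nkx6-1, a homeodomain factor of motor neuron and ventral interneuron progenitors, had 47.01 and 47.96 TPM with auxin, against 687, 660 and 626 TPM without it. Nkx6-2, its paralog, had 22.1 and 22.5 TPM with auxin, against 404, 428 and 464 TPM without it (log2 fold change -4.25 ± 0.07, adjusted p = 1.65e-20). Nkx2-2, which marks the domain next to the floor plate, had 5.97 and 7.02 TPM with auxin, against 84.8, 85.8 and 82.2 TPM without it. Foxa2, of the floor plate itself, was less reduced, with 66.5 and 65.6 TPM with auxin, against 165, 159 and 159 TPM without it. Dorsal and intermediate factors were 8 higher and 2 lower of 16. Zic1, a zinc finger factor of dorsal progenitors, had 20.37 and 19.05 TPM with auxin, against 0.538, 1.31 and 0.991 TPM without it. Wnt1, a roof plate ligand, had 4.04 and 3.70 TPM with auxin and was listed at 0 in every untreated library. Pax3, a dorsal paired-box factor, had 3.12 and 2.46 TPM with auxin, against 0.0875, 0.201 and 0.181 TPM without it.

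The Hedgehog pathway, which SAG turns on downstream of its ligand and which patterns ventral progenitors, showed a mixed picture, with 4 higher and 9 lower of 15. Shh, the ligand made by the floor plate, had 13.98 and 16.45 TPM with auxin, against 85.3, 86.3 and 86.4 TPM without it. The receptor gene Ptch1, a direct target of the pathway, had 102 and 100.2 TPM with auxin, against 197, 199 and 195 TPM without it. Gli1, the other standard target, had 63.1 and 56.3 TPM with auxin, against 80.7, 77.8 and 68.6 TPM without it (log2 fold change -0.34 ± 0.10, adjusted p = 0.00755). The call of Gli1 was lost with median-of-ratios scaling and without auxin replicate 2. Gli3, whose repressor form opposes Hedgehog targets, had 23.7 and 24.0 TPM with auxin, against 6.36, 7.72 and 5.97 TPM without it. The co-receptor genes Cdon and Gas1 also rose, with log2 fold changes of 1.57 ± 0.12 for Cdon and 1.24 ± 0.16 for Gas1.

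Genes that mark neural progenitors fell, at 20 lower and 3 higher of 23. Nes, an intermediate filament of progenitors, had 77.9 and 81.6 TPM with auxin, against 383, 382 and 349 TPM without it (log2 fold change -2.21 ± 0.06, adjusted p = 9.55e-18). Sox1, an early neural SOX factor, had 10.7 and 12.0 TPM with auxin, against 90.6, 94.1 and 82.5 TPM without it. Fabp7, a lipid carrier of radial glia, had 15.9 and 19.7 TPM with auxin, against 358, 312 and 332 TPM without it. The 3 that rose were Tnc, Ptn and Hmga2, of which Tnc and Ptn encode secreted proteins that mesenchyme also makes. Tnc had 17.9 and 15.1 TPM with auxin, against 0.964, 0.845 and 0.524 TPM without it.

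Notch signalling, which holds progenitors back from becoming neurons, was lower in transcripts of ligands, modulators and targets. Of 17 Notch genes, 16 fell and none rose (median log2 fold change -2.0). Among ligands, Dll1 had 9.11 and 13.1 TPM with auxin, against 127, 124 and 123 TPM without it, and Dll3 had 11.6 and 16.2 TPM with auxin, against 139, 147 and 141 TPM without it. The glycosyltransferase Lfng, which tunes the receptor, had 10.58 and 12.97 TPM with auxin, against 192, 184 and 202 TPM without it. Hes5, the main Notch effector of the neural tube, had 5.84 and 5.31 TPM with auxin, against 151, 157 and 135 TPM without it (log2 fold change -4.61 ± 0.13, adjusted p = 1.09e-17). Hes1, which many cell types use, was less reduced, with 106 and 96.2 TPM with auxin, against 157, 162 and 171 TPM without it.

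Proneural and early neuronal factors fell furthest among the lists. Of 17 tested, 16 were lower and 1 higher, with a median log2 fold change of -3.21. Neurog2, a proneural factor of motor neuron and dorsal progenitors, had 0.376 and 0.660 TPM with auxin, against 13.1, 15.1 and 9.97 TPM without it. Insm1, a zinc finger factor of newborn neurons, had 7.85 and 8.59 TPM with auxin, against 159, 169 and 151 TPM without it (log2 fold change -4.20 ± 0.11, adjusted p = 5.49e-18). The gene that rose, Neurog3, stayed at 0.812 and 1.19 TPM with auxin, against 0.439, 0 and 0 TPM without it, and its call was lost under 7 of the alternatives tried.

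Neuron genes themselves were lower, with 33 of 34 pan-neuronal genes down and 1 up and a median log2 fold change of -2.59. Tubb3, the neuronal beta-tubulin, had 192 and 222 TPM with auxin, against 2022, 1959 and 2058 TPM without it (log2 fold change -3.28 ± 0.08, adjusted p = 8.94e-19). Nefl, the light neurofilament chain, had 89.4 and 101 TPM with auxin, against 1082, 996 and 1010 TPM without it. Dcx, the microtubule protein of migrating neurons, had 2.35 and 3.30 TPM with auxin, against 46.5, 42.2 and 42.7 TPM without it. Scg2, a granule protein of secretory neurons, had 1.84 and 0.736 TPM with auxin, against 65.1, 54.0 and 61.6 TPM without it, and its log2 fold change of -5.15 ± 0.18 (adjusted p = 1.39e-15) was the lowest of the genes named here. Nefh, the heavy neurofilament chain, was the exception, with 12.0 and 12.8 TPM with auxin, against 3.05, 3.70 and 3.69 TPM without it, and its mean in untreated ESCs was 46.7 TPM.

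Among neuronal subtypes, motor neuron genes were 9 lower and 2 higher of 13. Isl1, a LIM factor of motor neurons, had 14.3 and 13.2 TPM with auxin, against 174, 166 and 172 TPM without it. Mnx1 rose, with 13.2 and 11.6 TPM with auxin, against 5.81, 5.61 and 6.27 TPM without it. Interneuron factors were 9 lower and 2 higher of 16, and axon guidance genes 25 lower and 4 higher of 31. Slit1, a midline repellent, had 26.0 and 28.4 TPM with auxin, against 246, 249 and 246 TPM without it. Of the few glial genes, 2 rose and 2 fell of 6.

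Genes of the WNT, BMP and Nodal pathways were more often higher than lower. Of 26 WNT genes that passed without the auxin libraries, 16 rose and 6 fell. Sp5, a direct target of the pathway, had 19.5 and 18.7 TPM with auxin, against 0.645, 0 and 0.335 TPM without it, and Wnt6, a ligand, had 14.4 and 13.6 TPM with auxin, against 0, 0.169 and 0.304 TPM without it. Sfrp1, a secreted WNT inhibitor, had 51.8 and 48.5 TPM with auxin, against 431, 403 and 419 TPM without it, and Wnt7a, a neural ligand, also fell. Of 26 BMP and Nodal genes, 18 rose and 3 fell. Bmp4, a ligand that opposes neural fate, had 48.3 and 42.4 TPM with auxin, against 2.51, 1.87 and 1.23 TPM without it (log2 fold change 4.31 ± 0.24, adjusted p = 1.79e-12). Id1, a target of BMP signalling, had 231 and 212 TPM with auxin, against 94.9, 99.7 and 103 TPM without it. The Nodal targets Lefty1 and Lefty2, near-identical genes whose reads may be split, had log2 fold changes of 4.38 ± 0.16 (Lefty1) and 5.17 ± 0.47 (Lefty2).

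In the retinoic acid pathway, 8 genes rose and 4 fell of 12. Rarg, a receptor, had 39.6 and 42.4 TPM with auxin, against 5.70, 7.64 and 5.32 TPM without it. Cyp26a1, a target gene whose enzyme degrades retinoic acid, had 4.71 and 5.91 TPM with auxin, against 0.547, 0.419 and 0.567 TPM without it. The binding proteins Crabp1 and Crabp2, abundant in hindbrain progenitors, fell, with 1687 and 1963 TPM of Crabp1 with auxin, against 3449, 3530 and 3731 TPM without it. FGF ligands, receptors and feedback genes were 13 higher and 5 lower of 22. Etv4, a transcription factor downstream of FGF, had 59.2 and 54.9 TPM with auxin, against 4.41, 5.24 and 4.43 TPM without it. Fgfr3, the receptor of neural progenitors, had 11.4 and 12.0 TPM with auxin, against 113, 110 and 118 TPM without it.

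Transcripts of PRC2 itself moved in both directions, with 6 of 14 tested subunits higher and 5 lower. The background was 22.1% of genes higher and 34.0% lower. Beside Suz12 (log2 fold change 1.06 ± 0.12, adjusted p = 1.01e-07), the largest rise was in Phf19, an accessory subunit, with 29.97 and 28.50 TPM with auxin, against 5.01, 5.66 and 4.74 TPM without it. Jarid2 had 73.1 and 64.9 TPM with auxin, against 38.1, 36.3 and 40.4 TPM without it. Ezh2 had 119 and 118 TPM with auxin, against 161, 164 and 148 TPM without it. Mtf2 had 25.4 and 25.7 TPM with auxin, against 27.6, 24.8 and 24.8 TPM without it, and was not called (log2 fold change -0.01 ± 0.09, adjusted p = 0.96). Eed, which did not pass on the TPM scale, had 61.9 and 57.7 TPM with auxin, against 52.32, 55.51 and 52.99 TPM without it. Of 22 subunits of PRC1, the complex that reads the PRC2 mark, 3 rose and 8 fell, with a list median of -0.14 that turned to 0.01 with median-of-ratios scaling. The lower counts of both complexes lie near the background share, and the higher count of PRC1 lies below it. Ring1, a catalytic subunit, had 36.5 and 34.4 TPM with auxin, against 74.9, 76.0 and 73.1 TPM without it.

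Imprinted genes were 23 higher and 9 lower of 39. H19, a noncoding RNA, had 2240 and 2197 TPM with auxin, against 331, 355 and 338 TPM without it, and its neighbour Igf2, a growth factor of the same imprinted domain, had 535 and 522 TPM with auxin, against 95.8, 93.0 and 98.9 TPM without it. Untreated ESCs averaged 1.01 TPM of H19 and 0.392 TPM of Igf2. Dlk1, a membrane ligand related to those of Notch, had 258 and 230 TPM with auxin, against 21.3, 19.4 and 25.5 TPM without it. Nnat, a neuronal imprinted gene, had 196 and 210 TPM with auxin, against 1345, 1278 and 1284 TPM without it. Total levels do not show which parental allele was read.

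Growth and metabolism changed less. All 20 cholesterol synthesis genes fell, with a median log2 fold change of only -0.65. Hmgcs1, an early enzyme of the pathway, had 222 and 230 TPM with auxin, against 552, 511 and 552 TPM without it. Proliferation genes were 14 higher and 4 lower of 26 (median log2 fold change 0.15). Ccne1, cyclin E1, had 187 and 174 TPM with auxin, against 99.6, 106 and 96.2 TPM without it, while Ccnd1, cyclin D1, had 234 and 225 TPM with auxin, against 459, 447 and 456 TPM without it. Cdkn2a and Cdkn2b, cell-cycle inhibitor genes known as Polycomb targets, had log2 fold changes of 0.35 ± 0.09 (Cdkn2a) and 1.27 ± 0.26 (Cdkn2b). Glycolysis, stress and p53 genes were called in both directions, with list medians between -0.10 and 0.07 under either scaling for glycolysis and stress.

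The most abundant genes also took part. Among lower genes, Tuba1a, an alpha-tubulin with close copies, had 1534 and 1561 TPM with auxin, against 5405, 5218 and 5503 TPM without it, and Ckb, brain creatine kinase, had 732 and 764 TPM with auxin, against 3341, 3424 and 3620 TPM without it. Among higher genes, Rplp1, a ribosomal protein gene with pseudogene copies, had 8616 and 8967 TPM with auxin, against 5377, 5608 and 5863 TPM without it. The 10 most abundant genes held 5.86% to 5.98% of the TPM total with auxin and 5.01% to 5.17% without it.

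The direction of change was then set beside normal differentiation, read from the untagged line without auxin (NPC against ESC), whose libraries are not among the 5. In that line 8462 of 17760 genes (47.6%) were higher and 5055 (28.5%) lower in NPC cultures than in ESCs. Of 2332 tested genes that normally rise at least 4-fold, 1766 (75.7%) were lower and 177 (7.59%) higher in auxin than in untreated SUZ12-AID cultures, with a median log2 fold change of -1.0. Of 884 genes that normally fall at least 4-fold and passed the filter without the auxin libraries, 748 (84.6%) were higher and 3 (0.339%) lower, with a median of 1.93. The whole class held 1275 genes, of which 227 did not pass the filter in any way, and 70.7% of the class was tested and higher. Placed against untreated SUZ12-AID ESCs, the rising class stood at medians of 2.10 and 2.08 on the log2 scale in the auxin libraries, against 3.10, 3.06 and 3.04 in the untreated libraries. The 884 falling genes stood at -1.28 and -1.32 with auxin, against -2.95, -2.97 and -2.97 without it. In both classes the auxin libraries thus lay between ESCs and untreated NPC cultures. JARID2 auxin libraries did so too, at 2.29 to 2.41 and -2.0 to -1.89. Untreated JARID2-AID NPC libraries stood at 2.73 to 2.82 and -2.65 to -2.57. MTF2 auxin libraries stood at 2.96 to 3.07 and -2.65 to -2.59, against 3.04 to 3.08 and -2.99 to -2.95 without auxin. Of the 1635 genes at least 2-fold higher with auxin that passed without the auxin libraries, 65.9% were lower in normal NPCs than in ESCs, 17.7% were higher there and 16.4% were not called.

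**Figure D4:**
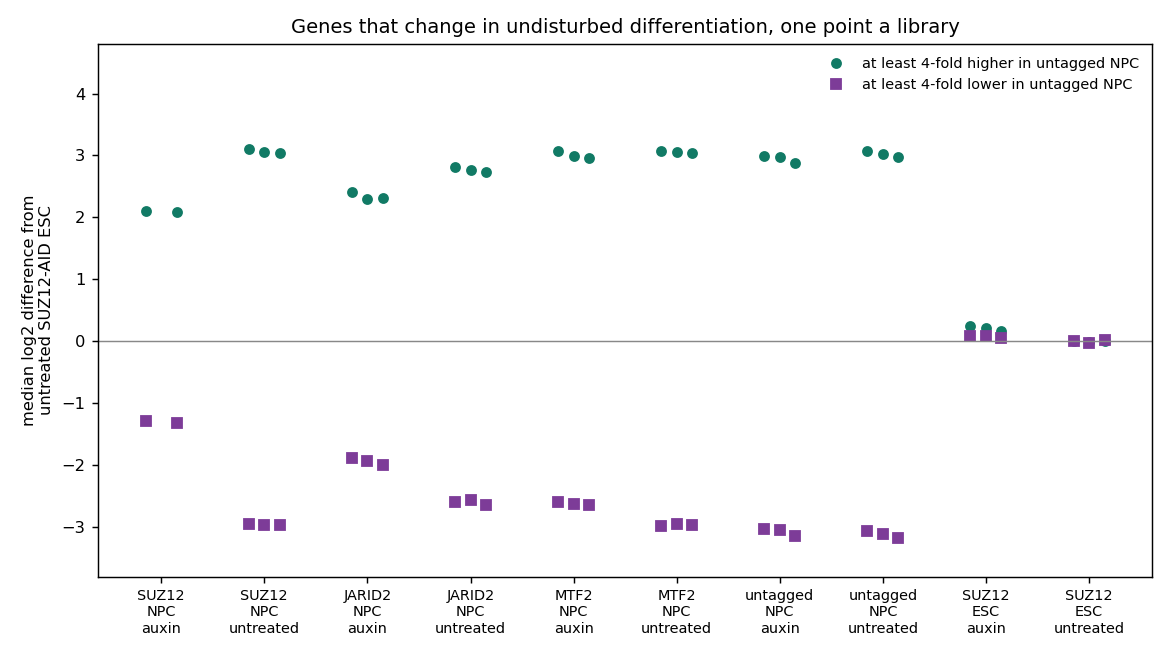
Median log2 difference from untreated SUZ12-AID ESCs, by library, of 2332 genes that rise and 884 genes that fall at least 4-fold in untagged cells between ESC and NPC and pass the filter without the SUZ12 auxin libraries. The 2 SUZ12 auxin libraries stand at 2.08 to 2.10 and -1.32 to -1.28, against 3.04 to 3.10 and -2.97 to -2.95 for untreated SUZ12-AID NPC libraries.

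A further set of genes was low in untreated stem cells and progenitors alike. Of 19954 genes with a mean under 1 TPM in all 4 untreated groups used (SUZ12-AID and untagged ESCs and NPCs), 28 reached at least 5 TPM in both SUZ12 auxin libraries. These were picked by their values in these libraries and are given as a description, with no test. Smoc2, a matrix-associated calcium-binding protein, had 25.2 and 23.6 TPM with auxin, against 0.117, 0.135 and 0.365 TPM without it. Hapln1, a link protein of cartilage matrix, had 25.3 and 23.3 TPM with auxin, against 0.328, 0.0754 and 0.136 TPM without it. Others were the mesodermal Osr1 and Gata6, the craniofacial homeobox gene Alx1, the limb mesenchyme factor Prrx1, the ligands Wnt6 and Rspo3, and Hoxc9. The 28 also held Cxcl10, Psmb8 and Gbp2, genes known for their response to interferon. On average 2 of the 28 reached 5 TPM in JARID2 auxin cultures, 1 in MTF2 auxin cultures and none in SUZ12-AID ESCs after 12 hours of auxin.

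Auxin without a degron gave no calls: in untagged NPC cultures no gene passed in either direction (0.0% of 16469, limma), with 1180 genes at an unadjusted p under 0.05. Across genes the untagged effects had a Pearson r of 0.131 and a Spearman rho of 0.219 with those of SUZ12 loss. Pan-neuronal genes had an untagged median of -0.24, and general pluripotency genes 0.05. Summed pan-neuronal levels in untagged cultures were 6250 to 6554 TPM with auxin, against 7008 to 7659 TPM without it. The difference between the auxin effects in SUZ12-AID and untagged cultures was significant for 3095 genes (18.8%) in the higher and 4075 (24.7%) in the lower direction, 7170 (43.5%) in all. With median-of-ratios scaling these were 3917 and 3331 genes. It was highest for Tdgf1 at 5.99 ± 0.41 (adjusted p = 1.52e-10) and lowest for Scg2 at -4.82 ± 0.24 (adjusted p = 1.53e-12). Without auxin the SUZ12-AID and untagged NPC cultures differed for 110 genes in the higher (0.668%) and 24 in the lower direction (0.146%).

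JARID2 loss over the same 5 days gave 1528 higher (9.28%) and 2588 lower genes (15.7%). The effects of SUZ12 and JARID2 loss shared no sample, and across the 16469 genes, which are not independent, their log2 fold changes had a Pearson r of 0.631 and a Spearman rho of 0.626. Genes higher in both numbered 1273, or 32.4% of the SUZ12 calls and 83.3% of the JARID2 calls, and genes lower in both numbered 2215, or 40.7% of the SUZ12 calls and 85.6% of the JARID2 calls. The slope of JARID2 on SUZ12 effects was 0.296. The difference of the effects was tested gene by gene, and 2229 genes (13.5%) lay higher and 2898 (17.6%) lower with SUZ12 loss, 5127 (31.1%) in all. With median-of-ratios scaling these were 2737 higher and 2448 lower genes. For all 17 naive genes that passed without the SUZ12 auxin libraries, the SUZ12 effect was higher than the JARID2 effect. JARID2 loss itself raised 10 of these 17 and lowered 1, and it raised 12 of the 15 general pluripotency genes. Of the 13 formative genes, 5 had a higher and 2 a lower SUZ12 than JARID2 effect, with a median difference of 0.15. Pou5f1 averaged 101 ± 4.38 TPM in JARID2 auxin cultures and 34.4 ± 4.38 TPM in untreated JARID2-AID cultures (SD, n = 3 each), so the untreated JARID2-AID level was itself above the 6.81 to 8.63 TPM of untreated SUZ12-AID cultures.

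At the extremes of that difference stood a mesodermal and a ventral neural factor. The highest difference was in Osr1, at 5.73 ± 0.59 (adjusted p = 1.64e-07), which averaged 1.99 ± 0.986 TPM in JARID2 auxin cultures and 2.54 ± 0.598 TPM in untreated JARID2-AID cultures (SD, n = 3 each). The lowest was in Nkx6-2, at -4.07 ± 0.10 (adjusted p = 4.8e-17), with 280 ± 10.6 TPM in JARID2 auxin cultures and 317 ± 13.8 TPM in untreated JARID2-AID cultures (SD, n = 3 each). Of the 9 genes of Hox paralogs 5 to 9 that passed without the SUZ12 auxin libraries, 8 had a higher SUZ12 than JARID2 effect, and JARID2 loss raised none and lowered 2. Of the 30 mesoderm genes counted in the same way, 25 differed in the higher direction and 1 in the lower. JARID2 loss raised 2 of the 30 and lowered 4. Pan-neuronal genes fell with both, 33 with SUZ12 loss and 32 with JARID2 loss of 34, and the medians were -2.59 and -1.23. For 30 of the 34 the SUZ12 effect was the lower one.

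**Figure D5:**
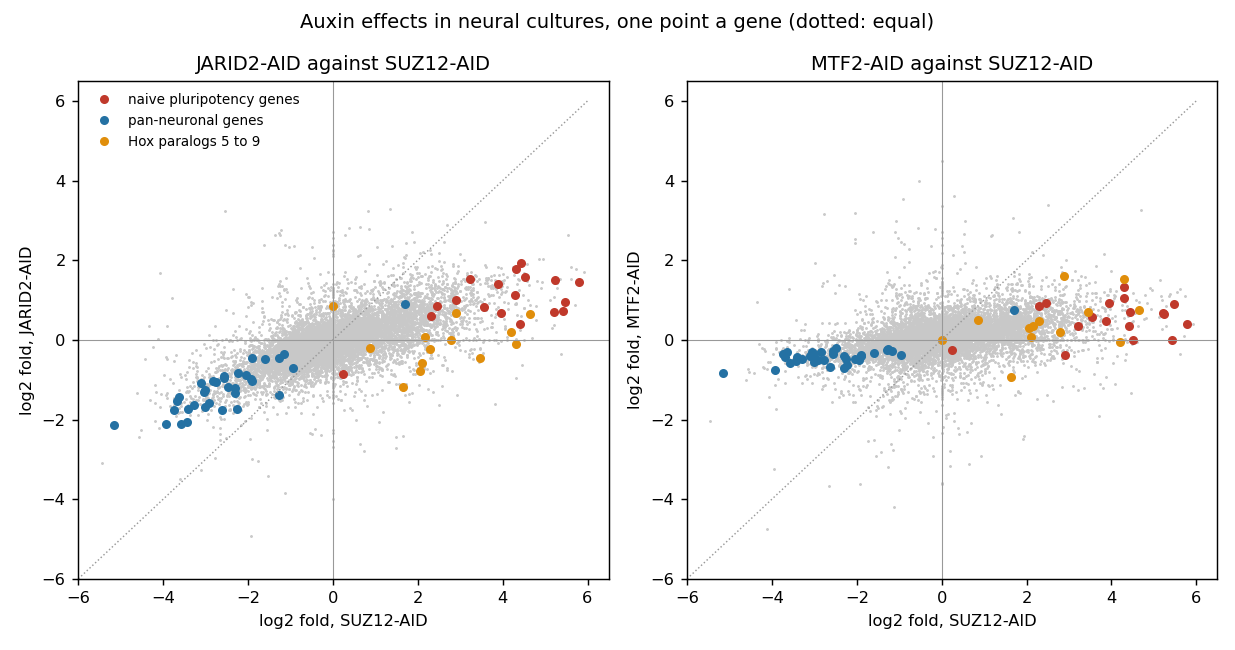
Log2 fold change with auxin in SUZ12-AID NPC cultures (horizontal axis) against that in JARID2-AID and in MTF2-AID NPC cultures (vertical axes), with 1 point per gene and the dotted line at equal effects. Pan-neuronal genes have medians of -2.59 with SUZ12 loss, -1.23 with JARID2 loss and -0.41 with MTF2 loss, and the naive pluripotency genes, 1 of which passed only through the SUZ12 auxin libraries, lie below the dotted line in both panels.

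MTF2 loss gave fewer calls, 828 higher (5.03%) and 512 lower (3.11%). Its effects had a Pearson r of 0.374 and a Spearman rho of 0.412 with those of SUZ12 loss across genes, with a slope of 0.140. Of the MTF2 calls, 577 of 828 higher genes (69.7%) and 445 of 512 lower genes (86.9%) were called the same way with SUZ12 loss, which is 14.7% of the higher and 8.18% of the lower SUZ12 calls. The difference of the effects passed for 2592 genes (15.7%) in the higher and 4483 (27.2%) in the lower direction, 7075 (43.0%) in all. With median-of-ratios scaling these were 3780 higher and 3190 lower genes. It was highest for Lgals7, a galectin of stratified epithelia, at 5.78 ± 0.85 (adjusted p = 1.33e-05), and lowest for Scg2 at -4.32 ± 0.24 (adjusted p = 1.07e-11). MTF2 loss raised 10 of the 30 mesoderm genes and lowered 2, and it lowered 21 of the 34 pan-neuronal genes with a median of -0.41. Auxin in untagged NPC cultures gave these 34 genes a median of -0.24, with none called.

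In SUZ12-AID ESCs, 12 hours of auxin raised 1163 genes (6.55% of 17760) and lowered 79 (0.445%). Of the 1133 raised genes that were also tested in NPC cultures, 258 (22.8%) were higher and 603 (53.2%) lower after 5 days of differentiation without SUZ12. Over all 16469 genes tested the shares were 23.9% higher and 33.0% lower, so the higher share was near that of all genes. These raised genes, 1133 of the 16469 tested, made up 6.56% of the genes higher and 11.1% of the genes lower in NPC cultures. The effects in NPCs and ESCs, which differ in cell state and in duration, had a Pearson r of 0.024 across genes. Their difference passed for 3274 genes (18.4%) in the higher and 5455 (30.7%) in the lower direction, 8729 (49.1%) in all, and with median-of-ratios scaling for 4503 and 3839 genes. For Utf1 the direction itself was opposite, though the effect of auxin alone in untagged ESCs was not tested here. Utf1 had a log2 fold change of 4.95 ± 0.24 in NPC cultures (adjusted p = 1.64e-12) and -0.62 ± 0.16 in ESCs (adjusted p = 0.0126). Of the 23 radial glia genes, 12 rose in ESCs and none fell, whereas 3 rose and 20 fell in NPC cultures.

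Marker genes of other cell types moved with these results. Summed epithelial markers (Epcam, Cdh1 and Krt5) were 149 to 151 TPM with auxin, against 11.3 to 12.1 TPM without it. Endoderm markers summed to 29.03 to 30.02 TPM with auxin, against 0.898 to 2.09 TPM without it, with 3 of 5 under 1 TPM with auxin. The part of a changed mix of cell types in the gene values above was not tested.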

How the data were processed

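RNA-seq was described in 5 SUZ12-AID NPC libraries, with 42 libraries of other groups for comparison. The deposited values are TPM per gene in 1 table of the whole series, scaled by the authors to 1000000 per library. STAR 2.6.1d and the mm10 build are named in the submitters' processing notes, while the counter and the gene models behind the values are unknown here. The deposited TPM steps gave whole reads (tolerance 0.001) for 27296 of 27296 genes above 0, which supplied depths and an alternative with voom.

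Groups were taken from the labels. limma 3.58.1 (R 4.3.3; Python 3.11.15 with pandas 2.3.3 and numpy 2.4.6) was fitted to log2(TPM + 0.5) over 23 NPC libraries (47 for contrasts with ESCs), keeping each gene that reached 1 TPM in 2 or more of them, with trended, robust variance, two-sided tests and Benjamini-Hochberg adjustment over all genes tested. The fit was tested on simulated data. A contrast of contrasts tests the difference between 2 auxin effects. TPM depends on the other RNAs of a library, so median-of-ratios scaling was tried, besides other pseudocounts, filters, fits and left-out libraries. No batch split was possible because all 47 libraries carry 1 sequencing-run identifier.

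Members and gene lists were chosen with earlier results of these data known. Named genes were the PRC2 subunits targeted, the 15 largest rises and falls, the 5 extremes of each contrast of contrasts, up to 8 called members of each list and direction, all Hox and PRC2 genes, and the 5 most abundant called genes per direction. Klf4, Sox15, Hes1, Dcx and Alx1 were named after their values were seen. A gene in more than 1 list counts in each. Some genes are not reported here by name. Positions and promoter sequences are from RefSeq and GENCODE M21 on GRCm38.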

Additional observations from a re-analysis of the deposited data

Results flagged for a closer look

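The effect of SUZ12 loss in NPC cultures differed from another effect of auxin in 4 comparisons, each tested as a contrast of contrasts with limma. The number of genes with a difference was 7170 (43.5%) against untagged NPC cultures, 7075 (43.0%) against MTF2 loss, 5127 (31.1%) against JARID2 loss and 8729 (49.1%) against 12 hours of SUZ12 loss in ESCs. For the pluripotency gene Utf1 the effect in NPC cultures minus that in ESCs was 5.57 on the log2 scale, with called effects of opposite sign. The effect of auxin alone in ESCs was not tested. With groups of 2 and 3 libraries, no test for a single outlying library was made.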

How the results depend on the processing

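Other pseudocounts, no filter, the 5 libraries alone, median-of-ratios scaling and voom left each count of calls for SUZ12 loss within 1.5 times its value. Median-of-ratios scaling gave 5033 higher and 4299 lower genes, and voom on the recovered reads gave 5476 and 4486 (55.0% of calls higher). Voom, added for this comparison after the data were seen, gave 3363 genes with a higher SUZ12 than JARID2 effect, against 2229, and the cause was not tested. Leaving out 1 library gave 2996 to 3689 higher and 4466 to 5184 lower genes for SUZ12 loss. It gave 2373 to 2921 and 3351 to 3891 against untagged cultures, 1878 to 2418 and 3638 to 4321 against MTF2 loss, 1501 to 2019 and 2167 to 2680 against JARID2 loss, and 2779 to 3131 and 4671 to 5326 against ESCs. Without an auxin library, the lone one left is assumed to vary like other groups. The replicate block gave 3650 higher and 5272 lower genes by title numbers, and 3700 and 5035 by column-name numbers. Deviations of same-numbered libraries correlated at 0.011 and -0.033 by titles and at 0.033 and 0.045 by columns. The deviations of the 2 auxin libraries are exact opposites of each other, so these values cannot decide whether the numbers pair the samples. Of 413 named genes called, 373 were called under every alternative and 40 were lost under at least 1, with no direction reversed. Gapdh, Pkm and Neurog3 were each lost under 7. Medians of the PRC1, glycolysis, stress and cell-cycle inhibitor lists changed sign with median-of-ratios scaling. With 2 auxin libraries, an exact permutation test over samples could not reach 0.05.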

Other observations

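Among lists not described above, aryl hydrocarbon receptor genes were 3 higher and 0 lower of 5 tested, and cell-cycle inhibitors 4 higher and 3 lower of 10. Of the 28 genes low in the 4 untreated groups and present with SUZ12 loss, Gbp2 averaged 7.61 TPM and Arap3 12.0 TPM in JARID2 auxin cultures, and Foxe1 averaged 5.60 TPM in MTF2 auxin cultures. These are values without a test.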
